A study of Homo sapiens with 6 samples.

Results

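The transcriptome described here is that of control K562 cells (sgCtrl), taken as the 3 RNA-Seq libraries labelled with the genotype Control among the 6 libraries of the series. K562 is an established human chronic myelogenous leukemia line. The cells carried the lentiviral vector pLentiCRISPRv2, which delivers Cas9 and an sgRNA, with control sgRNAs that the labels name OR11A1 and OR2M49 and the methods name EGFP, or OR11A1 and OR2M4. The sources used here do not tell the control sgRNAs of the libraries apart. Per the labels, puromycin selection (10 mg/ml for 48 h) began 48 h after infection, while the methods give another dose and span. The cells were grown in DMEM with 25 mM glucose, 1 mM pyruvate and 10% serum until day 10. The 3 libraries came from separate transductions, and all of them therefore share Cas9, an integrated vector and drug selection. RNA was taken from Triton lysates that had been cleared by a spin at 20000 g, and rRNA was depleted, although polyA RNA is the molecule named in the labels.

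K562 cells are blocked at an early stage of the erythroid and megakaryocytic branch of blood formation. Cells of that branch are governed by the transcription factor GATA1, take up iron through the transferrin receptor (TFRC) and make hemoglobin from α-like and β-like globin chains, of which different members serve the embryo, the fetus and the adult. A rapidly dividing line also spends much of its mRNA on the machinery of translation, and its mitochondria transcribe 13 open-reading frames (ORFs) of the mt-DNA that encode core subunits of the respiratory chain and ATP synthase.

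Total counts over the 19330 listed genes were 742470, 866894 and 866155 in sgCtrl replicates 1 to 3, or 2475519 in all. Replicate 3 stood apart from the other libraries by several measures given below, and some of the values that rest on it are also given without it. A level is given as cpm, the counts of a gene per 1 M counts of the library, or as tpm, in which counts are first divided by the length of the gene's merged exons so that genes can be compared with each other. One count was worth 1.35, 1.15 and 1.15 cpm. In a library in which a gene had 0 counts, up to 3 counts are allowed, which is 4.04, 3.46 and 3.46 cpm. All intervals are 95% Wilson intervals and, like these limits, cover counting error only.

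The 4 genes used to recognise the line were all present. GATA1, on chromosome X from 48786540 to 48794311, had 104, 111 and 61 counts in replicates 1 to 3. These are 140, 128 and 70.4 cpm, and the interval of replicate 3 (54.8 to 90.5 cpm) lay below those of replicates 1 (116 to 170 cpm) and 2 (106 to 154 cpm). TFRC, on chromosome 3 from 196012511 to 196082153, stood at 1033, 1045 and 1211 cpm, with a mean of 1096 ± 99.5 (SD, n = 3) and rank 111 of all genes. The fetal γ-globin genes HBG1 and HBG2 had mean levels of 5526 ± 1907 and 5273 ± 1848 cpm (SD, n = 3), ranks 5 and 6. HBG1 had 3112, 4055 and 6678 counts and HBG2 2966, 3842 and 6402, so that both were highest in replicate 3. Without it their means were 4435 and 4213 cpm, that of GATA1 was 134 cpm and that of TFRC 1039 cpm. Of the genes detected in every library, 80.6% had a lower mean cpm than GATA1, and 98.9% a lower one than TFRC. The label was thus met by its markers in each library.

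Counts were concentrated on a limited number of genes. The most abundant gene was EEF1A1, the elongation factor that delivers aminoacyl-tRNA to the ribosome, with 15017, 15565 and 18676 cpm and alone 1.502%, 1.556% and 1.868% of the counts. The 10 leading genes held 6.70% ± 0.20 (SD, n = 3), the 100 leading genes 23.2% ± 0.69 and the 1000 leading genes 57.3% ± 0.67. It took 694, 689 and 639 genes to reach 50% of the counts in replicates 1 to 3, and 4605, 4530 and 4504 genes to reach 90%. Only 118 genes, 0.61% of those listed, had a mean of 1000 cpm or more, and they held 25.2% of all counts. A further 2095 genes between 100 and 1000 cpm held 49.1%, and 6082 genes between 10 and 100 cpm held 24.5%. The curves of the 3 libraries nearly coincided.

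**Figure D1:**
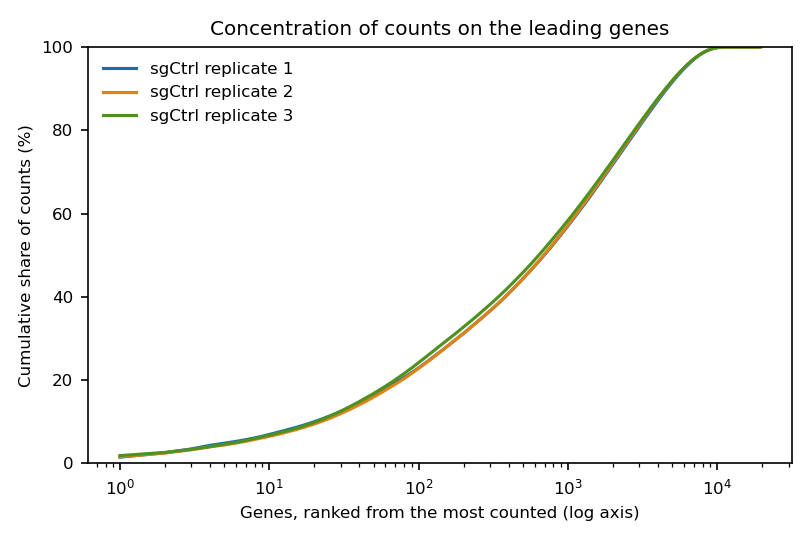
Cumulative share of a library's counts (y axis, %) against the number of genes taken from the most counted down (x axis, log scale), with a line for each sgCtrl library. The lines lie close together, reach 50% between 639 and 694 genes, and run slightly higher in replicate 3 around the 100 leading genes.

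By cpm, the 20 leading genes fell into 4 groups. The first was translation, with EEF1A1, the translocation factor EEF2 (3032 ± 278 cpm), EEF1G (2773 ± 215 cpm) and the ribosomal proteins RPLP0 (4164 ± 585 cpm), RPS2 (4059 ± 245 cpm), RPL4 (3269.9 ± 471 cpm), RPS18 (3127 ± 546 cpm) and RPS24 (2784 ± 335 cpm). The second was the mt-DNA, with MT-CO1 (8766 ± 2116 cpm), MT-ND4 (7207 ± 1753 cpm), MT-CO3 (7013 ± 1999 cpm), MT-CO2 (4323 ± 1079 cpm), MT-ATP6 (3451 ± 758 cpm) and MT-ND2 (2805 ± 676 cpm). The third was γ-globin. The last held the chaperone HSPA8 (4249 ± 353 cpm), the nucleolar protein NPM1 (2978 ± 317 cpm), the α-tubulin TUBA1B (2974 ± 76.5 cpm) and the glycolytic enzyme GAPDH (2809 ± 171 cpm), all SD with n = 3. Differences between neighbours in this order were often within the spread: RPLP0, RPS2 and HSPA8, for example, lay within 1 SD of each other.

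Per length the order changed. The 20 genes with the highest mean tpm were led by MT-CO3 (26652 ± 7718 tpm), MT-CO2 (18822 ± 4753 tpm), HBG2 (18615 ± 6312 tpm), MT-CO1 (16933 ± 4163 tpm) and MT-ND4 (15563 ± 3761 tpm), and included 9 mt-DNA-encoded ORFs, both γ-globins, the ribosomal protein RPS12 (11787 ± 1484 tpm), the ferritin light chain FTL (7728 ± 871 tpm), 3 histone genes and 4 copies of GAGE, a cancer-testis antigen family on the X chromosome. EEF1A1, first by cpm, was at rank 30 with 4852 ± 540.1 tpm. The merged exons of EEF1A1 span 10063 bases and its canonical transcript 3512 bases, and with canonical lengths it stood at rank 11. The leading gene changed as well: with canonical lengths HBG1 (15934 tpm) stood ahead of MT-CO3 (15322 tpm). Levels per length therefore carry the uncertainty of which isoforms the cells make, which the counts per gene do not resolve.

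Genes for translation held the largest share of the counts of the classes examined. Per length with merged exons, ribosomal proteins held 11.96% and mt-DNA-encoded ORFs 14.3% of tpm, whereas with canonical transcript lengths they held 21.5% and 8.21%. The order of these classes thus depended on the scale and on the gene model. The cytosolic ribosomal proteins held 10.5%, 10.8% and 12.4% of the counts in replicates 1 to 3, a mean of 11.2% ± 1.03 (SD, n = 3). Of the 83 listed, 79 were detected in every library and 4 were at 0 in all of them. Those detected in every library had a median of 1172 tpm for the 47 of the large subunit and 1002 tpm for the 32 of the small subunit. The weakest of these were the paralogues RPL39L (12.3 cpm) and RPS27L (49.3 cpm). Translation factors added 3.93%, 4.01% and 4.26%. After the elongation factors EEF1A1, EEF2 and EEF1G, the most counted were the helicase EIF4A1 (1324 ± 130.2 cpm), which unwinds the start of mRNAs, and the initiation factors EIF3E (992 ± 158 cpm) and EIF4B (984 ± 47.6 cpm). Mitochondrial ribosomal proteins, by contrast, took 0.621%, 0.630% and 0.705% over 76 genes, every one of them detected in every library. All 37 aminoacyl-tRNA synthetases were detected in every library too, and they held 0.805% ± 0.013.

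Many mRNAs of the translation apparatus begin with a run of pyrimidines at the start of the transcript, known as a 5′ terminal oligopyrimidine sequence, through which their translation responds to growth signals. RefSeq (GRCh38.p14) gives the annotated start of 23 of the 30 most counted genes outside the mt-DNA, and 13 of these windows held a run of 8 or more C and T. The windows below run from 10 bases before to 20 bases from the start, in the sense of transcription, with the longest unbroken run of C and T in capitals. Among the ribosomal protein and translation factor genes of these 30, 12 of the 16 with a window held such a run. The windows show 6 of these and NPM1, then EEF1G, a translation gene with a short run, and 3 leading genes of other classes with a short one.
EEF1A1: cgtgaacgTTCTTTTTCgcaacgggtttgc
RPLP0: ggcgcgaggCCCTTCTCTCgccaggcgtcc
RPS18: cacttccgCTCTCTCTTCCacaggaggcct
EEF2: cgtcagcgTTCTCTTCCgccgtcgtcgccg
RPS24: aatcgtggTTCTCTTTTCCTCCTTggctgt
RPS12: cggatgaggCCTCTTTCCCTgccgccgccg
NPM1: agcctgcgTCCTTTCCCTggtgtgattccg
EEF1G: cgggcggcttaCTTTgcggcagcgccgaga
HSPA8: ggaaaccggTCTCattgaactcgcctgcag
TUBA1B: gCCCCgccctagtgcgttacttacctcgac
GAPDH: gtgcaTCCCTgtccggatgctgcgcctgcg
The EEF1A1 window is chr6:73521013-73521042 on the minus strand and the RPS24 window chr10:78033853-78033882 on the plus strand. Runs of 8 or more C and T lay in the windows of 48 of the 64 ribosomal protein genes detected in every library that have an entry (75%), with a median run of 11 bases. The share was 12.6% over all 27195 windows of the table, 14.4% over the 3431 genes with a mean of at least 50 cpm, and 12.8% over the 5356 silent genes with an entry. Histones stood at 26.8% (15 of 56), translation factors at 24.5% (12 of 49), chaperones at 21.4% (6 of 28), mitochondrial ribosomal proteins at 8.96% (6 of 67) and hnRNP and SR proteins at 6.25% (2 of 32). The run is a description of annotated starts, and the counts do not show where transcripts began.

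The mt-DNA-encoded ORFs held 4.29% ± 1.03 of the counts (SD, n = 3), close to the translation factors (4.07% ± 0.17), which held more than the ORFs in replicate 3. The 13 ORFs held 5.26% (5.21 to 5.31%), 4.38% (4.34 to 4.43%) and 3.21% (3.17 to 3.24%) of the counts in replicates 1 to 3. The intervals did not overlap, so the libraries differed by more than counting error. All 13 ORFs were lowest in replicate 3, and 12 of them highest in replicate 1. Per length, the order was led by the 3 cytochrome c oxidase subunits MT-CO3, MT-CO2 and MT-CO1, with MT-ND4 and MT-ATP6 next. The weakest were MT-ND5 (3399 ± 792 tpm), MT-ND3 (2563 ± 482 tpm) and MT-ND6 (2063 ± 241 tpm), the last being the only ORF on the other strand of the mt-DNA. The ranges over the libraries overlapped between every pair of neighbours in the order except MT-CYB (6357 ± 1385 tpm) and MT-ND5. Within each library, however, the 13 ORFs stood in the same order, because the levels shifted together between libraries. MT-ND4L and MT-ND4, and MT-ATP8 and MT-ATP6, are each read from a shared transcript with overlapping frames, so their counts cannot be fully separated.

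Subunits of the same complexes encoded in the nucleus were far less abundant per length. In complex I the 7 mt-DNA-encoded subunits had a median of 7399 tpm and the 36 nuclear-encoded ones detected in every library a median of 113 tpm, from 5.64 tpm for NDUFA10 to 1736 tpm for NDUFS5. In complex III the values were 6357 tpm for MT-CYB against a median of 215 tpm for 10 nuclear-encoded subunits. In complex IV the medians were 18822 tpm for 3 and 371 tpm for 11 subunits, and in ATP synthase 11703.5 tpm for 2 and 213 tpm for 18, the highest nuclear one being ATP5B (2273 tpm), the catalytic β subunit. Complex II, which has no mt-DNA-encoded subunit, had a median of 81.9 tpm over its 4 genes. The gap was present in each library: the medians for complex I in replicates 1 to 3 were 9002, 7281 and 5912 tpm for the mt-DNA and 102, 107 and 118 tpm for the nucleus. With canonical lengths, the ORFs held 8.21% of tpm in place of 14.3%.

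**Figure D2:**
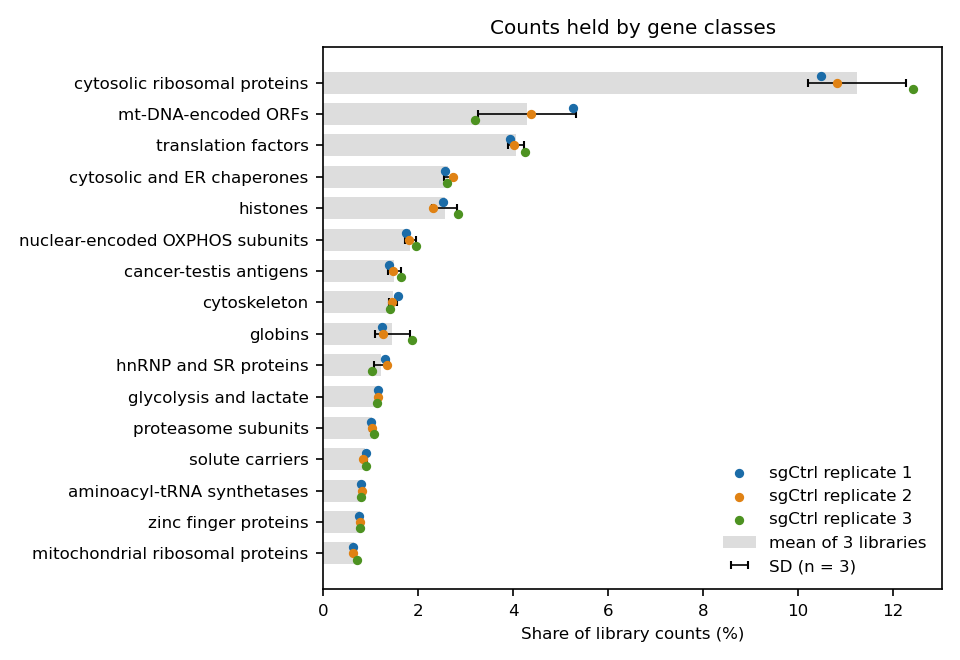
Share of a library's counts (x axis, %) held by 16 gene classes, with grey bars for the mean of the 3 sgCtrl libraries, black bars for the SD (n = 3) and a coloured point for each library. Ribosomal proteins lead at 11.2%, the points of replicate 3 lie apart for ribosomal proteins and globins, and those of mt-DNA-encoded ORFs are spaced from 3.21% to 5.26%.

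Among the other classes, cytosolic and ER chaperones held 2.64% ± 0.090 of the counts (SD, n = 3), and all 30 were detected in every library. HSPA8 was followed by the HSP90 genes HSP90AB1 (2661 ± 156 cpm) and HSP90AA1 (1625 ± 418 cpm) and by TCP1 (1619 ± 81.2 cpm), a subunit of the chaperonin that folds actin and tubulin. Histones held 2.52%, 2.31% and 2.85%, with 66 of 89 genes detected in every library. The leading members were the linker histones HIST1H1C (1548 ± 225 cpm) and HIST1H1E (1173 ± 127 cpm) and the core histones HIST1H2BK (1070.0 ± 158 cpm) and HIST1H4J (1024 ± 154 cpm). Replication-dependent histone mRNAs end in a stem-loop and lack a poly(A) tail. Glycolysis and lactate genes held 1.14% ± 0.014, with GAPDH, the enolase ENO1 (2539 ± 189.9 cpm), the aldolase ALDOA (1232 ± 199 cpm), the lactate dehydrogenase subunit LDHB (999.8 ± 45.4 cpm), the hexokinase HK1 (869 ± 242 cpm) and the other subunit LDHA (716 ± 191 cpm) in the lead. The cytoskeleton list held 1.47% ± 0.083, led by the tubulins TUBA1B, TUBA1C (2073 ± 24.2 cpm) and TUBB (1714 ± 70.0 cpm) and by actin (ACTB, 1651 ± 145 cpm). Proteasome subunits held 1.03% ± 0.040 and hnRNP and SR proteins, which bind and splice pre-mRNA, 1.23% ± 0.16, led by HNRNPA1 (1563 ± 314 cpm).

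All 30 genes of S phase and mitosis were detected in every library, with a median of 246 cpm. After the tubulin TUBB, the most counted were TOP2A (687 ± 32.3 cpm), which untangles replicated DNA, the helicase subunit MCM7 (634 ± 43.8 cpm), H2AFZ (577 ± 68.6 cpm), MCM4 (463 ± 71.9 cpm) and the sliding clamp PCNA (426 ± 30.7 cpm). The proliferation marker MKI67 was at 188 ± 27.2 cpm. All 20 nucleolar and ribosome biogenesis genes were detected in every library as well, led by NPM1 and NCL (809 ± 231 cpm).

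The oncogene of this line is the fusion of BCR and ABL1, and counts per gene do not separate the fusion from its partners. BCR had 219, 206 and 200 counts and ABL1 142, 156 and 160, or 254 ± 35.2 and 185 ± 5.67 cpm (SD, n = 3). All 18 listed signalling genes were detected in every library and their median was 96.6 cpm. The most counted were STAT5A (427 ± 55.7 cpm), a transcription factor that the kinase activates, and CRKL (256 ± 37.6 cpm), an adaptor that it phosphorylates. Next came STAT5B (225 ± 34.2 cpm) and PIM1 (127 ± 16.1 cpm), a STAT5 target. At the other end, the feedback inhibitor CISH, also a STAT5 target, was at 21.4 ± 7.21 cpm and the cyclin CCND2 at 38.5 ± 9.61 cpm.

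The globin genes expressed were those of the embryo and fetus together with α-globin. Globins as a class held 1.23% (1.21 to 1.26%), 1.26% (1.23 to 1.28%) and 1.88% (1.85 to 1.91%) of the counts. With the near-identical copies described below counted once, the mean was 0.826% in place of 1.46%. Among the β-like genes, HBE1, which encodes the embryonic ε chain, had 829, 818 and 1113 counts (1115 ± 171 cpm, SD, n = 3). Adult β-globin, HBB, had 0, 2 and 1 counts, and the minor adult gene HBD had 19, 16 and 19. Among the α-like genes, HBA1 had 803, 773 and 755 counts, HBA2 785, 786 and 778, and HBZ, which encodes the embryonic ζ chain, 621, 582 and 498. HBQ1 had 18, 17 and 14 counts, and HBM had 0 in all 3 libraries. The β-like genes summed to 9328, 10074 and 16409 cpm and the α-like genes to 2999, 2489 and 2361 cpm. Replicate 3 was thus the highest for HBG1, HBG2 and HBE1 and, in cpm, the lowest for HBA1, HBA2, HBZ and HBQ1.

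The order of the globins per length was γ above ε and α, then ζ, with a wide gap to the rest. HBE1 (3446 ± 470.5 tpm), HBA2 (3431 ± 302 tpm) and HBA1 (3378 ± 393 tpm) overlapped over the libraries, whereas HBZ (1781 ± 336 tpm) lay below HBA1 in every library, and HBQ1 (113 ± 22.7 tpm) and HBD (56.7 ± 8.41 tpm) lay far below. The values of γ-globin depend on the gene model, since the merged exons hold 1467 bases for HBG1 and 841 for HBG2. With canonical transcripts (587 and 586 bases) HBG1 stood at 15934 tpm and HBG2 at 15226 tpm. The canonical transcripts of HBG1 and HBG2 are 99.1% identical over 587 aligned bases and their counts had a ratio of 1.05, 1.06 and 1.04 in replicates 1 to 3. HBA1 and HBA2 (96.5% identical) had ratios of 1.02, 0.983 and 0.970. TUBA1B and TUBA1C, 97.5% identical over the 1336 bases that align, had ratios of 1.46, 1.40 and 1.45. The histone genes HIST2H3A and HIST2H3C, identical over 518 bases, had 602 and 603, 578 and 581, and 789 and 788 counts. How reads that map to several places were counted is not given in the sources used here, so the split within such pairs, and the sum over a pair, are uncertain.

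Erythroid genes outside the globins were present at moderate levels. All 9 enzymes of heme synthesis were detected in every library, from UROD, which makes coproporphyrinogen (503 ± 78.3 cpm), to ALAD (8.14 ± 3.09 cpm). The erythroid first enzyme ALAS2 (75.8 ± 6.38 cpm) and its ubiquitous counterpart ALAS1 (52.3 ± 11.7 cpm) had 54, 62 and 72 and 29, 53 and 49 counts. Per length they stood at 110.1 and 61.4 tpm. Of 14 genes of iron uptake and storage 12 were detected in every library, led by the ferritin chains FTL (2265 ± 287 cpm) and FTH1 (1106 ± 216 cpm), TFRC, and the ferritin receptor NCOA4 (263 ± 7.51 cpm). FTMT and HFE were at 0.

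Of 19 transcription factors of the erythroid and megakaryocytic lineages, 16 were detected in every library and 3 were at 0, among them FLI1 and ERG, which favour megakaryocytes. MYB, a factor of immature cells, led with 330.2 ± 41.0 cpm, followed by NFE2 (197 ± 41.8 cpm), E2F4 (151 ± 13.1 cpm), LDB1 (137 ± 21.4 cpm) and GATA1 (113 ± 37.2 cpm), all SD with n = 3. Per length the order differed, with NFE2 (248 ± 51.5 tpm) and GATA1 (217 ± 72.7 tpm) above MYB (179 ± 25.3 tpm). With canonical lengths NFE2 (203 tpm) stood above MYB (153 tpm) and GATA1 (132 tpm) below it. GATA2, which precedes GATA1 in blood formation, had 104, 69 and 69 counts (99.8 ± 34.9 cpm). KLF1, which activates adult β-globin, had 65, 55 and 60 counts (73.4 ± 12.6 cpm), and TAL1 30, 10 and 16. Of the 14 factors past the filter on low counts described below, 10 were highest in replicate 1, as were 2411 of all 7233 genes past it.

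Of 26 genes of the red cell membrane and surface, 24 were detected in every library. Among the most counted were the ammonium channel RHAG (569 ± 113 cpm), the anchoring protein ANK1 (343 ± 51.8 cpm), EPB41 (340.0 ± 39.5 cpm), the glycophorin GYPC (160.4 ± 5.36 cpm) and the spectrin SPTB (152 ± 4.36 cpm). The anion exchanger SLC4A1 and EPB42, proteins of late red cells, stood at 31.4 ± 7.23 and 3.65 cpm. Among other erythroid genes, BLVRB (299 ± 34.2 cpm), HEMGN (282 ± 34.6 cpm) and PRDX2 (263 ± 41.5 cpm) led. AHSP, the chaperone of free α-globin, was at 6.93 ± 2.00 cpm, and the carbonic anhydrase CA2 was at 0.

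The motif AGATAA is a form of the sequence that GATA factors bind. It was searched on both strands, the opposite one reading TTATCT, of the RefSeq promoters, which run from 250 bases before to 50 bases from the start. Among the 20 red cell membrane genes with an entry 9 held it (45.0%), of which 4 belong to 2 pairs of duplicated genes with the same or nearly the same sequence around it, and among the genes of all 7 erythroid lists 16 of 66 (24.2%). It lay in 2 of 16 promoters of the transcription factors, 2 of 7 of heme synthesis enzymes and 0 of 11 of iron uptake and storage genes. The share was 10.5% over all promoters of the table, 4.49% over genes with a mean of at least 50 cpm and 11.9% over silent genes. Matches in 4 promoters of genes with counts are shown with 10 bases on each side and the motif in capitals, in the sense of transcription.
ALAS2: actttgggttTTATCTctagcaagga
SPTB: gtccctcctcAGATAAtgttatttat
KEL: tgagaagctgAGATAAagggggagga
TAL1: cggcagtgccTTATCTctgcggcgca
The first letter of the motif lay 127, 42, 62 and 35 bases before the start of ALAS2, SPTB, KEL and TAL1. The ALAS2 match is at chrX:55031089-55031114 on the minus strand. TSPO2 and C1orf186, both at 0 in all 3 libraries, also held the motif, and a match is a description of letters, not a bound site.

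**Figure D3:**
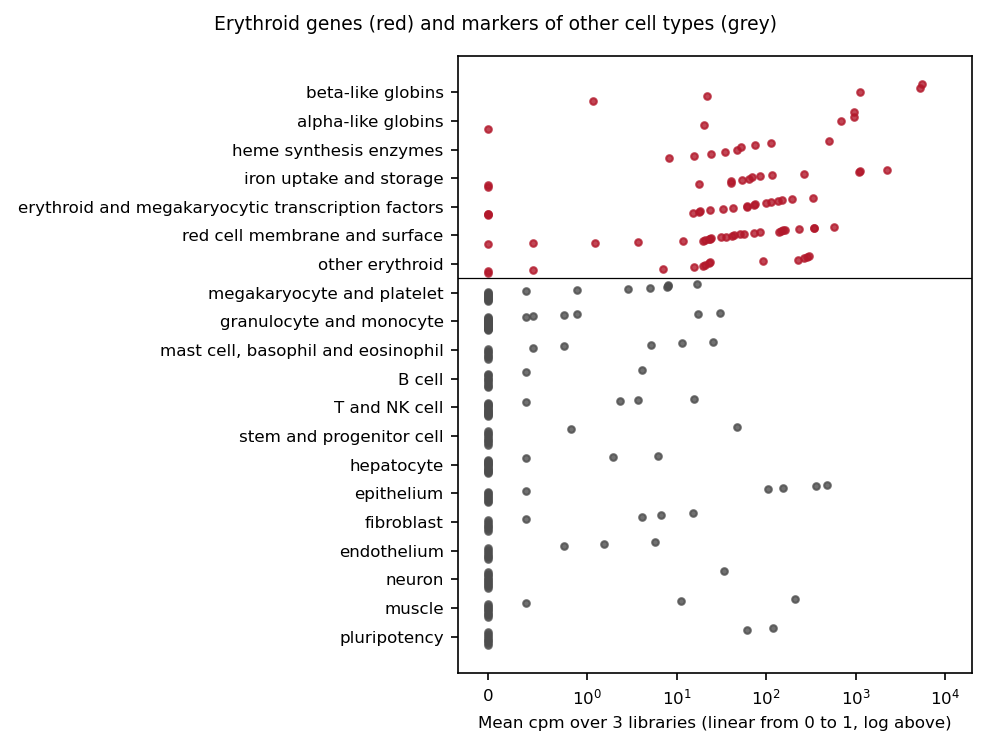
Mean cpm over the 3 sgCtrl libraries (x axis, linear from 0 to 1 and logarithmic above) of each gene of 7 erythroid lists (red) and of marker lists of 13 other cell types (grey), with a point for each gene. Most red points lie above 10 cpm, whereas 128 of the 176 grey genes sit at 0 and the leading grey points are keratins of the epithelium list.

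Markers of other cell types were mostly absent. Of 176 genes that mark 13 other cell types, 128 (72.7%) had 0 counts in all 3 libraries, 28 were detected in every library and 17 had a mean of at least 10 cpm. Of the 91 erythroid genes, 9 (9.89%) were at 0 and 75 reached 10 cpm. The lists were chosen with earlier results of these data known, and the erythroid ones include broadly expressed genes such as ALAS1. The contrast therefore depends in part on how the lists were made up and is not a test of identity. The other markers summed to 1698, 1810 and 1878 cpm in replicates 1 to 3, and the erythroid lists to 23847, 23723 and 30346 cpm. Most of the erythroid sum was in globins (12328, 12563 and 18770 cpm) and in iron uptake and storage genes (5138, 5117 and 5394 cpm). Most of the sum of the other markers was in the epithelium list (1003, 1117 and 1189 cpm). In bulk RNA, fewer cells of a type and less RNA per cell cannot be told apart.

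The blood lineages next to the erythroid one were weak. Of 18 megakaryocyte and platelet genes 10 were at 0, including PF4, GP9, GP1BA and VWF, and the list summed to 59.3, 48.4 and 40.4 cpm. Its most abundant gene was the thrombin receptor F2R (16.6 ± 2.43 cpm), and the platelet integrin ITGA2B had 6, 4 and 2 counts. Of 24 granulocyte and monocyte genes 18 were at 0, including MPO, ELANE, CSF3R, CD14 and CEBPA. The most abundant was lysozyme, LYZ (30.5 ± 10.1 cpm), and the list summed to 41.8, 51.9 and 56.6 cpm. Mast cell, basophil and eosinophil genes were at 0 for 7 of 12, including CPA3 and FCER1A, with ENPP3 the most abundant (25.3 ± 5.06 cpm). B cell genes were at 0 for 9 of 11, including MS4A1 and PAX5, and T and NK cell genes for 13 of 17, including CD3E, CD4 and CD8A. CD3D, at 15.5 ± 3.70 cpm with 14, 14 and 10 counts, was the most abundant of the latter. Of 11 stem and progenitor genes 9 were at 0, including CD34 and FLT3, and MECOM was at 47.4 ± 4.08 cpm.

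Outside blood, the epithelial genes KRT18 (483 ± 45.3 cpm), KRT8 (360.2 ± 46.9 cpm), EPCAM (154 ± 14.8 cpm) and KRT19 (106 ± 17.4 cpm) were counted in every library, while 8 of 13, including KRT5, KRT14, GRHL2 and CLDN4, were at 0 and the adhesion protein CDH1 had a single count in replicate 2. TNNT1, the slow skeletal troponin T, was at 207 ± 9.23 cpm with 9 of 12 muscle genes at 0, including MYOD1, MYOG and ACTA1. DNMT3B (119 ± 28.6 cpm) and LIN28B (61.4 ± 6.76 cpm) were counted with the other 8 of 10 pluripotency genes at 0, including POU5F1, NANOG and SOX2. TUBB3 (33.8 ± 12.2 cpm) was the only one of 12 neuron genes with counts. Hepatocyte genes were at 0 for 13 of 16, with AFP the most abundant (6.09 ± 3.51 cpm) and APOA1 and TTR at 0. Fibroblast genes were at 0 for 7 of 11, including DCN and LUM, with COL1A2 the most abundant (15.1 ± 2.41 cpm), and endothelium genes for 7 of 10, including CDH5 and KDR.

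Of 16 genes of MHC class I and its loading, 8 were detected in every library and 6 were at 0. This silent share (37.5%) was close to that of all listed genes (38.5%). HLA-B, HLA-F and HLA-G, which are MHC class I heavy chains, had 0 counts in all 3 libraries, HLA-C had 2, 0 and 0, and HLA-E 8, 7 and 14. Their partner B2M had 205, 269 and 282 counts (304 ± 25.3 cpm), and the loading chaperones CALR and PDIA3 stood at 719.6 ± 39.1 and 567 ± 35.5 cpm. The loading genes TAPBP, TAP2 and ERAP1 were among those detected in every library, TAPBP at 43.7 and ERAP1 at 41.7 cpm. The immunoproteasome gene PSMB8 and the class I activator NLRC5 were at 0. Of 8 class II genes 7 were at 0, including the activator CIITA, and HLA-DPB1 had a single count.

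Cancer-testis antigens, which are normally confined to the germ line, held 1.38%, 1.48% and 1.65% of the counts. Of 100 genes 60 were detected in every library. Copies of GAGE led, with GAGE1 at 1368 ± 122 cpm and GAGE12J at 1312 ± 125 cpm. GAGE12J and GAGE2A are 98.4% identical over 561 aligned bases, so the same uncertainty holds for these copies. PRAME, which has no such copy among the leading genes, was at 1136 ± 53.3 cpm.

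Of the 19330 genes, 10099 (52.2%) were detected in every library, meaning at least 1 count in each, 1780 (9.21%) in 1 or 2 libraries, and 7451 (38.5%) had 0 counts in all 3. A gene at 0 in all 3 is limited to 3 counts over the 2475519 summed, or 1.21 cpm. No gene that lacked counts in any library had more than 24 counts in all. Each library alone detected 10860, 10993 and 10949 genes, and at 50% of its depth it would have been expected to detect 10319, 10453 and 10436.5.

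Silent genes were concentrated in certain families, many of them used in other tissues. All 92 keratin-associated proteins (hair), all 18 late cornified envelope proteins (skin), all 16 type I interferons, 15 of which lie in the run on chromosome 9 described below, and all 11 HOXA genes were silent, as were 36 of 37 β-defensins, 376 of 389 olfactory receptors (96.7%), 48 of 53 clustered protocadherins and 49 of 55 keratins. Chemokines were silent for 34 of 39 and interleukins for 40 of 45, and no chemokine had a mean above 2.50 cpm (CXCL2). The HOX clusters differed: in HOXB 2 of 10 genes were silent and 6 were detected in every library, led by HOXB9 (35.7 ± 10.2 cpm) and HOXB2 (19.9 ± 1.56 cpm), whereas HOXD had 8 of 9 silent and HOXC 5 of 9. Among families with a broader use, silence lay below the share of all genes for zinc finger genes (78 of 504, 15.5%) and mitochondrial ribosomal proteins (none of 76). Solute carriers lay slightly above it (169 of 368, 45.9%).

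Some silent families had a member with many counts. Among potassium channel genes 74 of 98 were silent, but KCNH2 was at 626 ± 74.5 cpm. Among cytochromes P450 41 of 54 were silent, and CYP51A1, an enzyme of cholesterol synthesis, was at 286 ± 19.4 cpm. Among collagens 27 of 44 were silent, and COL6A5 (56.5 ± 19.7 cpm) led. Of the 5 olfactory receptors detected in every library, OR51B4 (42, 51 and 37 counts) and OR51B5 (29, 37 and 29 counts) led. Both lie on chromosome 11 beside the β-globin genes, at 5301014 to 5301946 and 5303444 to 5505652, and annotated transcripts of HBG2 and HBE1 overlap them on the same strand, so the counts of these receptors are uncertain. The other 3 were OR8G5 (5.32 cpm), OR2B6 (4.75 cpm) and OR2W3 (2.37 cpm). The genes named here were picked with their values in view, as were HOXB9, HOXB2 and CXCL2.

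**Figure D4:**
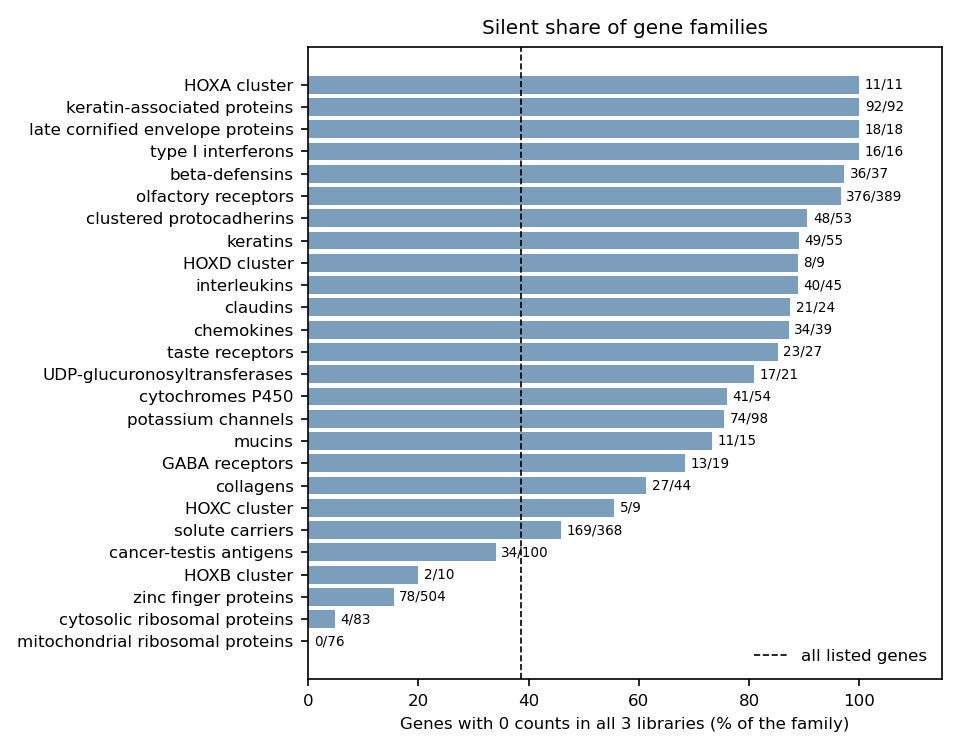
Share of the genes of 26 families with 0 counts in all 3 sgCtrl libraries (x axis, %), with the silent and listed numbers beside each bar and a dashed line at the share over all listed genes (38.5%). Families of hair, skin, smell and interferon stand near 100%, HOXB at 20.0% lies below the other HOX clusters, and mitochondrial ribosomal proteins stand at 0.

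Some of the silent genes lay in blocks along the chromosomes. There were 54 runs of at least 10 neighbouring silent genes, which held 925 of the 7451 silent genes. How many such runs would arise by chance was not tested. The longest held 64 genes on chromosome 11 from 48216810 to 57191717, of which 58 were olfactory receptors. Runs of 48 genes on chromosome 17 (40875889 to 41505705) and 35 on chromosome 21 (30165565 to 31559977) were mostly keratin and keratin-associated genes, and the latter ended next to SOD1, which had 1599 counts. A run of 34 genes on chromosome 1 (152084141 to 153032900) held the late cornified envelope genes. By chromosome, the silent share ran from 30.5% on chromosome 16 and 32.8% on chromosome 19 to 45.4% on chromosome 11 and 49.5% on chromosome 21.

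A run on chromosome 9 was of another kind, since it held genes that are broadly used as well as restricted ones. It comprised 24 neighbouring genes from HACD4 to TUSC1 (20999509 to 25678444), among them 15 type I interferon genes but also MTAP, an enzyme of methionine salvage, CDKN2A and CDKN2B, inhibitors of the cell cycle, and KLHL9. Outside the run, FOCAD had 4 summed counts and MLLT3 had 2, SLC24A2 was at 0 and ACER2 had 8. Beyond these, RPS6 had 5627 summed counts on one side and CAAP1 58 and PLAA 125 on the other. On a separate list of 23 genes compiled for this region, 21 were at 0. K562 cells are known to have lost the part of chromosome 9 that carries the interferon and CDKN2A genes. The counts alone do not distinguish a deleted gene from one that is not transcribed.

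The 3 libraries differed by more than counting error. Over pairs of libraries the chi-square per degree of freedom was 2.05 for replicates 1 and 2, 3.77 for 1 and 3 and 3.14 for 2 and 3. After edgeR's filter on low counts (filterByExpr), which kept 7233 genes with 97.3% of the counts, and scaling with its TMM factors, the common biological coefficient of variation (BCV), the spread of a gene's level beyond counting error, was 0.137. It was 0.105 for replicates 1 and 2, 0.157 for 1 and 3 and 0.139 for 2 and 3. Pearson's r of log2 levels across genes, which are not independent replicates, was 0.958, 0.946 and 0.955 for these pairs, and the median absolute difference was 0.25, 0.29 and 0.27 on the log2 scale.

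Of these 7233 genes, 573 had a highest library at least 2-fold above the lowest in TMM-normalized cpm, which is 7.92%. The share was lower in abundant genes, at 11.1% for genes with a mean of 10 to 100 cpm (555 of 5020), 0.811% between 100 and 1000 cpm (17 of 2095) and 0.847% above 1000 cpm (1 of 118). Replicate 3 was the library that stood alone for 241 of the 573 genes (42.1%), replicate 1 for 200 and replicate 2 for 132. Replicate 3 stood alone on the low side more often (158) than on the high side (83). With 2 libraries compared in place of 3, which narrows the range by construction, the number of genes apart was 215 without replicate 1, 294 without replicate 2 and 182 without replicate 3.

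The 10 genes with the highest ratio among those with a mean of at least 50 TMM-normalized cpm were KLF3, NPIPB11, NPIPB5, MLST8, NPIPB4, HSF1, SART1, SNRPA1, SMG9 and RFESD. KLF3, a transcriptional repressor of the KLF family, led with 64, 38 and 15 counts and a ratio of 4.90. SNRPA1, a protein of the U2 particle of the spliceosome, had 120, 155 and 53 counts (ratio 2.87), and MLST8, a subunit of the mTOR complexes, 64, 52 and 24 (ratio 3.06). Of the 10, 8 were lowest in replicate 3, RFESD was highest there (43, 55 and 140 counts, ratio 2.83), and NPIPB11 was lowest in replicate 2. Replicate 1 was the highest library for all of the 10 except SNRPA1 and RFESD, so most of these ratios rest on replicates 1 and 3 together. In replicates 1 and 2, KLF3 stood at 88.2 and 44.8 TMM-normalized cpm, SNRPA1 at 165 and 183, and RFESD at 59.3 and 64.8. NPIPB4, NPIPB5 and NPIPB11 belong to a gene family on chromosome 16. Their identity was not measured here, and their counts may be uncertain like those of the copies above. The 1 gene above 1000 cpm that was apart, picked with its values in view, was the ribosomal stalk protein RPLP1 with 1405, 1505 and 618 counts.

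By class, all 13 mt-DNA-encoded ORFs stayed within 2-fold, as did the 63 histone and 57 translation factor genes past the filter. Other lists lay above the 7.92% of all genes, such as aminoacyl-tRNA synthetases (4 of 35, 11.4%) and red cell membrane genes (3 of 19, 15.8%). The genes apart in these 2 lists had means of 25.4 to 44.6 cpm, and 11.1% of all genes between 10 and 100 cpm were apart. Of 78 ribosomal proteins, 3 were apart (3.85%). Besides RPLP1 these were RPS16 with 350, 335 and 142 counts and the paralogue RPS27L with 48, 24 and 48, both also picked in that way. RPLP1 and RPS16 had means above 100 cpm, where 0.811% and 0.847% of all genes were apart in the bins given above. Over the whole class, these 3 included, 66 of 78 were highest in replicate 3, with a median log2 difference from the mean of the libraries of -0.10, -0.08 and 0.18 in replicates 1 to 3. The medians for the mt-DNA-encoded ORFs were 0.32, 0.04 and -0.33, and those for hnRNP and SR proteins 0.05, 0.15 and -0.18. Those for the 4 β-like globins past the filter were -0.17, -0.22 and 0.39. Histones (48 of 63), mitochondrial ribosomal proteins (42 of 75) and nuclear-encoded OXPHOS subunits (45 of 80) were also most often highest in replicate 3, while 10 of 13 RNA helicases and splicing scaffolds were lowest there. Over all genes past the filter 2581 of 7233 were highest in replicate 3 and 2537 lowest. The medians for the 30 S phase and mitosis genes were -0.04, 0.04 and -0.04.

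**Figure D5:**
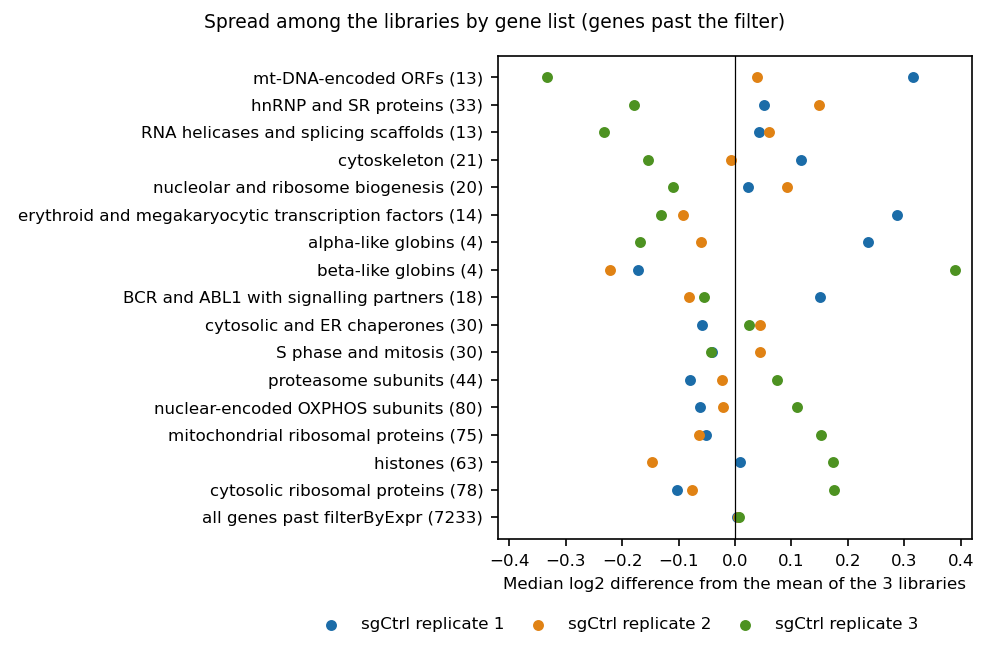
Median over the genes of a list of the log2 difference between a library and the mean of the 3 sgCtrl libraries (x axis, TMM-normalized cpm), with a coloured point for each library and the number of genes past the filter in parentheses. The point of replicate 3 lies at -0.33 for mt-DNA-encoded ORFs and at 0.18 for ribosomal proteins, while the points over all genes lie near 0.

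Transcript composition moved with these differences. Over the 4145 genes with a mean of at least 50 TMM-normalized cpm and a canonical transcript, the median log2 difference in replicate 1 went from -0.07 in the 829 genes lowest in GC content (median 37.9% GC) to 0.10 in the 829 highest (59.7% GC). In replicate 2 it went from 0.06 to -0.07 and in replicate 3 from 0.03 to -0.02. By length of the canonical transcript, replicate 3 went from 0.11 in the 829 shortest (median 1072 bases) to -0.06 in the 829 longest (7958 bases). Replicate 1 went from -0.04 to 0.02 and replicate 2 from -0.05 to 0.05. The part of GC content and transcript length in the differences between the libraries was not tested.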

How the data were processed

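Per the methods, the authors trimmed the 60 nt single-end reads with cutadapt, mapped them with HISAT2 to GRCh38, and counted them on the genes of Ensembl release 84. They deposited raw counts for 19330 genes by symbol, without normalization. Use of molecular identifiers is not described in the sources used here. The counting tool, its use of strand and its treatment of reads with several places are not given in the sources used here. Only the 3 sgCtrl columns were analysed, as a description without group tests. Symbols were matched to GENCODE v44 (18031 directly, 875 through an older symbol, 424 not matched), and 50 rewritten by a spreadsheet program were repaired. Positions, exon lengths and canonical transcripts come from it. The tpm values were computed over the 18906 genes with a length.

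Dispersion was estimated with edgeR 4.0.16 (filterByExpr, TMM, intercept only) in R 4.3.3, with DESeq2 1.42.0 size factors as an alternative; the rest used Python 3.11.15. The estimate was tested on simulated data. Named genes are the 20 leading by cpm and by tpm, the markers and globins, up to 6 leading members of each list, markers at 0, the 10 with the highest ratio between libraries, and silent families. Members and lists were chosen with earlier results of these data known. Long noncoding RNA, small RNA and snoRNA host gene lists, and MYC, CD74, GPI and PFN1 among others, were not analysed here, and a few members of the lists are not reported here.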

Additional observations from a re-analysis of the deposited data

How the results depend on the processing

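Of 53 recalculations, 38 stayed within the tolerance set for them, which was 1 SD over the libraries for a share, 1.5 times for a count of genes, and for the BCV the SD of its values with each replicate left out. The share on the 100 leading genes was 21.1% without mt-DNA-encoded genes, and 46.6% of tpm with merged exons or 42.1% with canonical lengths, the latter an alternative chosen after seeing the data. The mt-DNA-encoded ORFs held 14.3% of tpm with merged exons and 8.21% with canonical lengths, ribosomal proteins 11.96% and 21.5%, and globins 4.20% and 4.14%. With near-identical copies counted once, also chosen after seeing the data, globins held 0.826% of counts. The BCV was 0.105 to 0.157 with a replicate left out and lowest without replicate 3. Genes apart by 2-fold or more numbered 20 with at least 50 counts in each library, 3916 without a filter and with a pseudocount of 0.5 counts, and 182 to 294 with a replicate left out, when 2 libraries are compared and a smaller range follows by construction. The numbers of genes detected in every library and of silent genes moved by less than 1.5 times under all alternatives tried. No paired analysis was possible because a single condition is described.

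At this depth no gene with a mean below 10 cpm passed the filter, so their spread was not estimated, and a silent gene is limited to 1.21 cpm over the summed counts. The SD of 3 libraries is itself a rough estimate.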
